A study of Mus musculus with 30 samples.

Results

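Monocytes that had entered a glioma-bearing brain were compared with Ly6Chigh monocytes in the blood, sorted by a different set of antigens. The brain cells were GFPneg glioma monocytes (sort gate P13), CD11bhigh CD45high F4/80+ Ly6Chigh cells that carried no green fluorescent membrane from the tumor, from mice 22, 24 and 26. The blood cells were Ly6Chigh monocytes (gate P20), CD45high CD115high CD11clow Ly6Chigh, from mice 22, 23 and 24. Members were taken by the population in the labels, which gave 6 of the 30 libraries of the series, 3 in each group. The tissue label reads brain for the blood samples too, and the source name, which gives blood monocytes, was used for them. All were from C57BL6.CCR2RFP/WT mice aged 12 to 18 weeks, in which 1 Ccr2 allele carries the red fluorescent protein, and every mouse carried a GL261 glioma, a transplanted mouse glioma line here labelled with membrane GFP, so the blood monocytes also came from tumor-bearing animals. Brains were digested with enzymes and cleared on a Percoll gradient and blood was not, so compartment and handling cannot be told apart. In bulk samples fewer cells of a type and less RNA per cell cannot be told apart either.

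Classical Ly6Chigh monocytes are made in the bone marrow, circulate for a short time, and leave the blood through the chemokine receptor CCR2, whose ligands include CCL2, CCL7 and CCL12. Once in inflamed tissue or a tumor they differentiate towards macrophages or antigen-presenting cells, or are cleared. In gliomas they are a main source of tumor macrophages beside the brain's own microglia.

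The 6 libraries held 1683203 to 4394847 reads on genes, and 9078 to 10772 genes with at least 5 reads. Of 11566 tested genes, 1286 (11.1%) were called higher and 310 (2.68%) lower in glioma monocytes at an adjusted p under 0.05, by edgeR's quasi-likelihood test over all populations with Benjamini-Hochberg adjustment. Replicates of the groups did not overlap for 35.6% of all tested genes, 21.6% in the higher direction and 14% in the lower one. The median log2 fold change of all tested genes was 0.12, with 55.4% of them positive. Of the genes called higher, 389 had no read in any blood replicate. With scaling to the ERCC spike-in RNAs the counts fell to 390 higher and 8 lower, all of them among the calls above. Below, replicates are given in the order of mice 22, 23 and 24 for blood and mice 22, 24 and 26 for glioma, levels are CPM (reads of a gene scaled to a common library total), and differences are log2 fold changes of glioma over blood with their standard error (SE); a lone number in parentheses after a gene is its log2 fold change. CPM is not per length, so levels are compared between samples and not between genes. The members and lists were chosen with earlier results of these data known, and 39 lists with 824 tested genes were used.

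**Figure D1:**
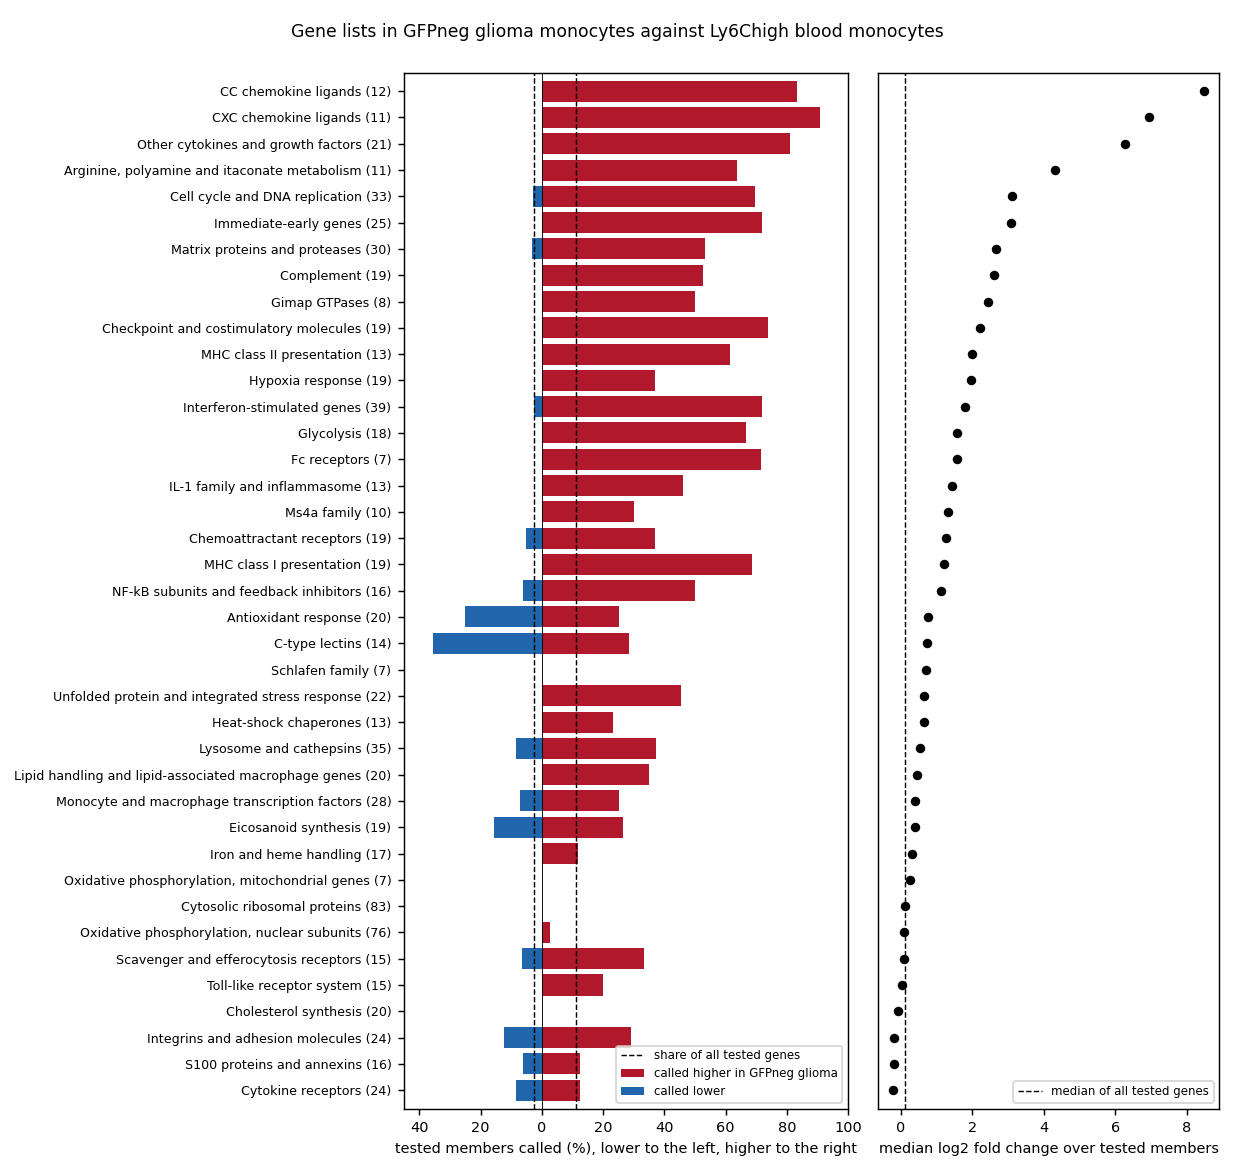
Gene lists, with the number of tested members in parentheses and the lists ordered by their median. The left panel gives the percent of tested members called higher (red) or lower (blue) in GFPneg glioma monocytes with dashed lines at the 11.1% and 2.68% of all tested genes, and the right panel gives the median log2 fold change of the members with a dashed line at 0.12, the median of all tested genes; chemokine and cytokine ligands stand at the top, and cytokine receptors, S100 proteins and annexins, and integrins at the bottom.

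The levels of the genes that define the label are given first. *Csf1r*, the receptor behind CD115, stood at 3408, 3588 and 3694 CPM in blood and 2617, 3009.9 and 3452 CPM in glioma monocytes. *Ly6c2*, which encodes the sorted Ly6C antigen, stood at 964, 1273 and 1291 CPM in blood and 3496, 3763 and 2857 CPM in glioma. It was higher in all glioma replicates (log2 fold change 1.52 ± 0.503, adjusted p = 0.0438), though it shares sequence with *Ly6c1* and the split of their reads is uncertain. *Ccr2* stood at 1890.4, 2384 and 1906 CPM in blood and 802, 588 and 953 CPM in glioma; its groups did not overlap and it missed the threshold (log2 fold change -1.399 ± 0.49, adjusted p = 0.0553). Of the remaining sorting genes, *Itgax* (CD11c) was called higher (log2 fold change 3.09 ± 0.62, adjusted p = 0.000919) and *Ptprc*, *Itgam* and *Adgre1* were not called. The blood gate took CD115high CD11clow cells and the brain gate used neither antigen. The *Itgax* difference therefore cannot be told apart from the gates and does not check the label. *Csf1r*, *Ly6c2* and *Ccr2* were thus present at high levels in all 6 replicates. Ly6C was used in both gates and CD115 in the blood gate. The levels of *Ly6c2* and *Csf1r* are therefore no independent check of the label.

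Markers of other cells moved with the glioma group too. All 8 microglia markers were called higher, and their summed level was 23.8 to 57.4 CPM in blood and 1167 to 2478 CPM in glioma replicates. Of 10 T and NK cell markers 9 were called higher, with sums of 24.02 to 190.4 CPM and 919 to 2068 CPM, and *Cd8a* was not called. Of 8 B and plasma cell markers 3 were called higher (*Igha*, *Igj* and *Mzb1*), and of 8 dendritic cell markers 4 (*Clec9a*, *Ccr7*, *Siglech* and *Fscn1*). The dendritic cell markers *Flt3*, *Zbtb46*, *Xcr1* and *Cd209a* were not called, and *Flt3* was lower in all glioma replicates. *Siglech* is also on the microglia list, and *Clec9a* had 4, 12 and 9 reads in glioma. The sums of the B and plasma cell list went from 519 to 770 CPM in blood to 1328 to 3052 CPM in glioma. Those of the dendritic cell list went from 100.2 to 219 CPM to 466 to 890 CPM. The largest members of each glioma sum were *Siglech* (207, 263 and 138 CPM, 0 in blood) and *Ccr7* (177, 396 and 359 CPM). The higher sums are therefore those of single members and not of the whole dendritic cell list. The glioma replicate of mouse 24 was highest in each of the 4 lists. The astrocyte markers had 4 of 5 tested genes called higher (3.37 to 4.18 CPM against 73.3 to 156 CPM), endothelial markers 2 of 4 (17.4 to 46.8 CPM against 84.6 to 195 CPM), oligodendrocyte markers 2 of 4 with 1 lower, and platelet markers 1 of 3 (*Pf4*). Neutrophil markers had 0 of 10 higher and 1 lower, with overlapping sums of 391 to 1529 CPM and 89.3 to 1889 CPM. *Mmp8*, the lower one, was the largest member of each blood sum (829, 660 and 244 CPM). *Ngp* had 80.3, 0 and 0 CPM in blood and 0, 391 and 72.9 CPM in glioma. *S100a8* had 245, 76.7 and 62.7 CPM in blood and 22.1, 493 and 123 CPM in glioma. The overlap of the sums thus does not show that neutrophil transcripts were alike in the groups. Neuron markers had 0 of 1 higher (sums of 0.836 to 1.76 CPM and 5.52 to 20.002 CPM), and erythroid markers 0 of 4 (0 to 57.9 CPM and 13.4 to 71.6 CPM). *Xist* was counted in the glioma replicate of mouse 26 alone (53.6 CPM), where the Y-linked *Ddx3y*, *Kdm5d*, *Eif2s3y* and *Uty* were at 0, a pattern of female cells that none of the other 5 replicates showed. The part of these cells, and of sex, in the lists below was not tested.

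**Figure D2:**
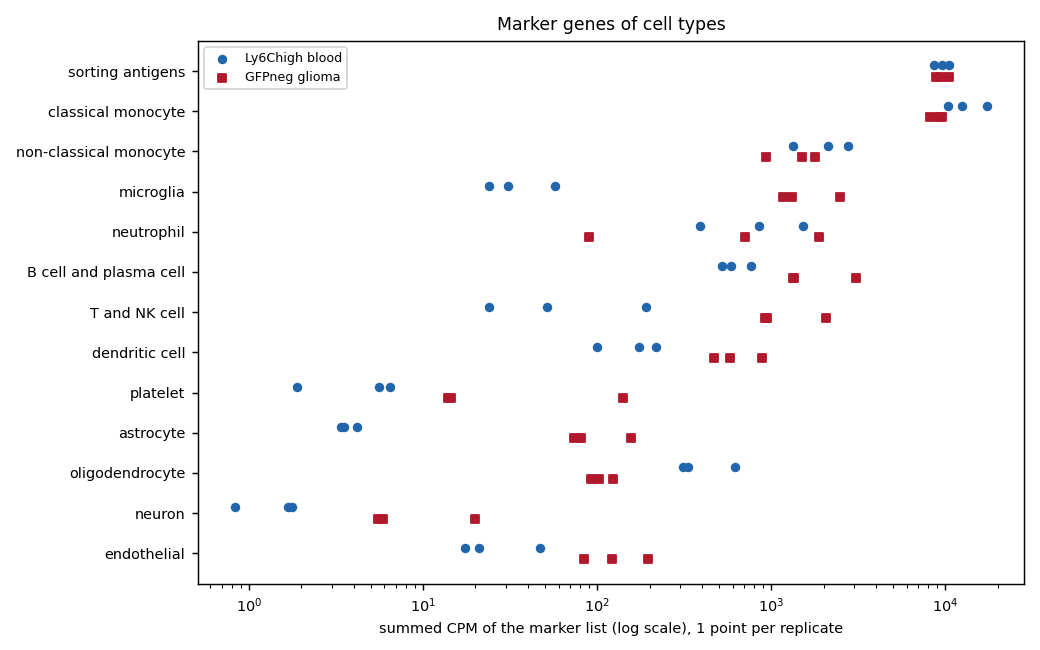
Summed CPM of the marker list of each cell type on a log scale, 1 point per replicate, with blood as blue circles and glioma as red squares. The microglia sums lie at 23.8 to 57.4 CPM in blood and 1167 to 2478 CPM in glioma. The neutrophil sums overlap, with *Mmp8* the largest member of each blood sum. The erythroid list is left out since 1 blood replicate is at 0.

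The genes with the largest changes among those at 10 CPM or more in both groups give a first view. *Ccrl2*, an atypical receptor that binds chemerin, led the rise, from 16.9, 12.9 and 9.198 CPM in blood to 1806, 1790.3 and 2499 CPM in glioma (log2 fold change 7.31 ± 0.64, adjusted p = 8.33e-09). *Ly6a* (Sca-1), an interferon-responsive surface protein, followed, with 24.2, 16.99 and 15.7 CPM against 2759, 2561 and 2149 CPM (log2 fold change 7.05 ± 0.34, adjusted p = 1.32e-13). The other members of the 10 were *C1qc*, *C1qb*, *Ier3*, *Thbs1*, *Cxcl10*, *Cxcl16*, *Il1rn* and *Il1b*, all described with their lists. Among the genes that fell, *Ear2*, an eosinophil-type ribonuclease of monocytes, went from 448, 139 and 199 CPM to 18.6, 20.3 and 2.58 CPM (log2 fold change -4.22 ± 0.79, adjusted p = 0.000469). *Cd300lb*, an activating CD300 receptor, went from 472, 385 and 567 CPM to 13.5, 29.98 and 33.6 CPM (log2 fold change -4.21 ± 0.78, adjusted p = 0.000368). *Ace*, angiotensin-converting enzyme, and *Adgre4*, an adhesion GPCR of the F4/80 family, are both abundant in non-classical monocytes. *Ace* fell from 379.8, 105 and 289 CPM to 20.6, 23.02 and 3.23 CPM (log2 fold change -4.03 ± 0.89, adjusted p = 0.00242), and *Adgre4* from 819.6, 375 and 537 CPM to 46.7, 70.1 and 15.5 CPM (log2 fold change -3.704 ± 0.71, adjusted p = 0.000565). The 10 that fell most also held *Nxpe4* (-4.17), *Ldlrad3* (-3.81), *Pi16* (-3.75), *Galnt9* (-3.63), *Hpgd* (-3.49) and *Ceacam1* (-3.34). In each of the genes of this paragraph the replicates of the groups did not overlap. *Thbs1* (adjusted p = 0.0486) lost its call on leaving out any one blood replicate or the glioma replicate of mouse 22 or 26, and *Galnt9* on leaving out the blood replicate of mouse 23 or 24 or any one glioma replicate.

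Of 6 markers of non-classical monocytes, 4 fell: *Ace*, *Spn*, *Treml4* and *Itgal*. *Spn* (CD43) stood at 66.3, 30.5 and 55.8 CPM in blood and 11.04, 22.5 and 8.39 CPM in glioma (log2 fold change -1.86 ± 0.49, adjusted p = 0.0112), and was not called without the glioma replicates of mice 22 or 26. *Treml4* stood at 586, 167 and 192 CPM and 63.2, 59.4 and 18.7 CPM (log2 fold change -2.73 ± 0.75, adjusted p = 0.0144), and the blood replicate of mouse 22 was the highest. *Nr4a1*, the transcription factor that non-classical monocytes need, was not called (log2 fold change 0.77 ± 0.55, adjusted p = 0.44). Of 7 markers of classical monocytes, *Ly6c2* rose and 6 were not called; *F13a1*, the coagulation factor XIII A chain of blood monocytes, stood at 4831, 5043 and 4038 CPM in blood and 401, 514 and 1625 CPM in glioma with no overlap (log2 fold change -2.45 ± 1.15, adjusted p = 0.179).

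Chemokines are small secreted proteins that draw leukocytes along a gradient, and their 2 lists had the largest medians of the 39. Of 12 CC ligands 10 were called higher and 0 lower, with a median log2 fold change of 8.48, and of 11 tested CXC ligands 10 and 0, with a median of 6.95. With ligands absent from blood set to the lower bound of their rise, the medians were 6.70 and 5.98. *Ccl2*, a CCR2 ligand, had 0.562, 4.69 and 7.11 CPM in blood and 574, 480.2 and 952 CPM in glioma (log2 fold change 7.2001 ± 0.56, adjusted p = 2.91e-09). *Ccl7* and *Ccl12*, further CCR2 ligands, had no read in any blood replicate. *Ccl7* reached 186, 121 and 556 CPM in glioma, at least 212-fold higher (adjusted p = 2.17e-09). *Ccl12* reached 228, 165 and 311 CPM, at least 173-fold higher (adjusted p = 2.83e-12); such bounds set blood at 3 counts per library, 1.36 CPM on average. These genes and *Ccl8* lie within 81.2 kb of chromosome 11 (82035571 to 82116799, GRCm38). *Ccl4*, an inflammatory chemokine, rose from 0.562, 1.17 and 2.09 CPM to 773, 1424 and 1090.4 CPM (log2 fold change 9.503 ± 0.71, adjusted p = 5.86e-10), and *Ccl3* from 2.25, 0 and 2.51 CPM to 179, 389 and 404 CPM (log2 fold change 7.46 ± 0.95, adjusted p = 2.97e-06). By contrast *Ccl6* and *Ccl9*, which blood monocytes already made at 2834, 2994 and 1921 CPM and 1077, 1327 and 1139 CPM, were not called (log2 fold change -1.09 ± 0.499, adjusted p = 0.167 and log2 fold change -0.62 ± 0.696, adjusted p = 0.678). The CCR4 ligands *Ccl17* and *Ccl22*, known from mature dendritic cells, were at 0 in blood and reached 32.1, 48.7 and 15.5 CPM and 70.2, 254 and 28.4 CPM, and *Ccl5*, also made by T and NK cells, reached 1335, 1656 and 338 CPM from 58.99, 8.79 and 13.8 CPM. All 3 were lowest in the mouse 26 replicate.

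The CXC ligands fell into groups with different replicate patterns. The neutrophil attractants *Cxcl1*, *Cxcl2* and *Cxcl3*, neighbours on chromosome 5 (90786103 to 90905938), were at 0 in all blood replicates. *Cxcl2* reached 423, 192 and 1959 CPM, at least 632-fold higher (adjusted p = 3.54e-05). *Cxcl1* reached 36.6, 8.57 and 536 CPM (adjusted p = 0.0163) and *Cxcl3* 12.5, 1.07 and 341 CPM (adjusted p = 0.035). The mouse 26 replicate was the highest for all 3, and the calls of *Cxcl1* and *Cxcl3* were lost on leaving out it or any one blood replicate. The interferon-responsive CXCR3 ligands showed the opposite order, lowest in mouse 26. *Cxcl9* rose from 0, 8.79 and 3.97 CPM to 545, 842 and 183 CPM (log2 fold change 6.95 ± 0.804, adjusted p = 7.06e-07) and *Cxcl10* from 12.4, 25.8 and 50.2 CPM to 1499, 2659 and 968 CPM (log2 fold change 5.83 ± 0.795, adjusted p = 8.44e-06). *Cxcl16*, a transmembrane ligand of CXCR6, rose from 29.2, 11.1 and 15.7 CPM to 1093, 1196 and 739 CPM (log2 fold change 5.76 ± 0.62, adjusted p = 2.08e-07). *Cxcl11* (no blood read, 93.3, 143 and 37.4 CPM in glioma) and *Pf4*, a platelet marker, rose too, and *Cxcl12* was not called. *Cxcl11* is annotated as a polymorphic pseudogene in the mouse, so its reads do not show that a working ligand was made. Without the blood replicate of mouse 24 the called CXC ligands were 6, and with spike-in scaling 7 CXC and 10 CC ligands were called higher.

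NF-kB, the factor that drives many of these genes, binds sites of the form GGGA and TTTCC with any base between them. RefSeq promoter windows (GRCm38.p6, 250 bases before to 50 after a gene start) were at hand for 9 of the 12 CXC ligands, and 3 of them held this motif on either strand, compared with 0.552% of the tested genes with a window and 0.411% of all 32851 windows. They are the 3 neutrophil attractants, and the stretches around the match, with the motif in capitals, are shown because they share the same 10 letters. A match is a description of the sequence and not a measured site.
Cxcl1 (chr5:90891149-90891208, plus strand): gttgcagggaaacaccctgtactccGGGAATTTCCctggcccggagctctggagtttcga
Cxcl2 (chr5:90903777-90903836, plus strand): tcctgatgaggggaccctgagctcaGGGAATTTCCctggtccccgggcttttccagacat
Cxcl3 (chr5:90786003-90786062, plus strand): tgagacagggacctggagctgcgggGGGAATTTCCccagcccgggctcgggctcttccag
None of the 7 CC ligand windows held the motif, which says only that these letters are not in those windows. Of 13 windows of the NF-kB subunit and inhibitor list 2 did (*Nfkb2* and *Nfkbia*).

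The receptor lists had lower medians than the ligand lists. Of 19 chemoattractant receptors 7 were called higher and 1 lower (median 1.28), and of 24 cytokine receptors 3 and 2 (median -0.20). Of all tested genes 11.1% were called higher and 2.68% lower, so the 3 higher cytokine receptors are near the general share. *Ccr1*, a receptor for CCL3 and CCL5, stood at 266, 265 and 83.6 CPM in blood and 969, 1077 and 1178 CPM in glioma (log2 fold change 2.396 ± 0.33, adjusted p = 1.09e-05). *C3ar1*, the C3a receptor, rose from 13.5, 31.6 and 10.9 CPM to 582, 320.2 and 1131 CPM (log2 fold change 5.21 ± 0.64, adjusted p = 1.69e-06). *Ccr7*, which guides dendritic cells to lymph nodes, rose as well (log2 fold change 4.09 ± 0.68, adjusted p = 0.0001), beside the dendritic cell markers given above. *Cx3cr1* was not called (log2 fold change -0.79 ± 0.36, adjusted p = 0.171). Among cytokine receptors *Il21r* rose the most, from 15.2, 4.1003 and 9.41 CPM to 292, 380.1 and 271 CPM (log2 fold change 5.03 ± 0.76, adjusted p = 3.51e-05). Further risers were *Il7r* (log2 fold change 2.69), the IL-7 receptor also found on T cells, and *Csf2rb2* (log2 fold change 1.86), a chain of the IL-3 receptor. *Il17ra*, the shared IL-17 receptor chain, fell from 496, 484 and 732 CPM to 93.3, 111 and 99.4 CPM (log2 fold change -2.496 ± 0.61, adjusted p = 0.00549), and *Ifngr1*, the ligand-binding chain of the interferon-gamma receptor, from 2011, 2007 and 1511 CPM to 706, 738 and 619 CPM (log2 fold change -1.42 ± 0.22, adjusted p = 4.8e-05). The receptors for interferon alpha, IL-10, TGF-beta and TNF (*Ifnar1*, *Ifnar2*, *Il10ra*, *Tgfbr1*, *Tgfbr2*, *Tnfrsf1a*, *Tnfrsf1b*) were not called. The chemoattractant receptor that fell, *S1pr5*, was not called without the glioma replicates of mice 24 or 26, and with spike-in scaling 3 chemoattractant receptors and 1 cytokine receptor were called higher.

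Many cytokines rose beside the chemokines. Of 13 tested genes of the interleukin-1 family and inflammasome 6 were called higher and 0 lower (median 1.44), and of 21 other cytokines and growth factors 17 and 0 (median 6.28, or 4.08 with those absent from blood at their bound). *Il1b* had 146, 73.8 and 44.3 CPM in blood and 3350.01, 2968 and 6021 CPM in glioma (log2 fold change 5.55 ± 0.66, adjusted p = 1.1e-06). Its antagonist *Il1rn* had 44.4, 52.1 and 31.8 CPM and 1754, 3098 and 1424 CPM (log2 fold change 5.62 ± 0.65, adjusted p = 6.9e-07), so the cytokine and its inhibitor rose together, as did the decoy receptor *Il1r2* (log2 fold change 5.02 ± 1.03, adjusted p = 0.0012) and the IL-18 inhibitor *Il18bp* (log2 fold change 5.23 ± 0.86, adjusted p = 9.54e-05). *Il1a* had no read in blood and 265, 263 and 748 CPM in glioma, at least 314-fold higher (adjusted p = 9.58e-08). The inflammasome genes *Nlrp3*, *Pycard*, *Casp1* and *Gsdmd*, which process or release these cytokines, were not called, and *Casp4* rose (log2 fold change 1.396 ± 0.43, adjusted p = 0.0304), a call lost without either of the blood replicates of mice 22 and 23 or the glioma replicates of mice 22 and 24. *Osm*, an IL-6 family cytokine, rose from 6.18, 11.7 and 6.898 CPM to 1540.1, 2652 and 1533 CPM (log2 fold change 7.87 ± 0.77, adjusted p = 5.32e-08), and *Tnf* from 3.93, 4.69 and 9.41 CPM to 87.3, 245 and 225 CPM (log2 fold change 4.87 ± 0.92, adjusted p = 0.000468). The growth factor *Vegfa* had no read in blood and 50.7, 57.3 and 88.4 CPM in glioma, at least 48.2-fold higher (adjusted p = 1.36e-06). The risers also held *Inhba* (no blood read, 22.1, 22.5 and 71.6 CPM in glioma), the activin A chain, and *Il6* (no blood read, 14.5, 60.5 and 37.4 CPM in glioma). *Spp1* (osteopontin) had 4.49, 0 and 0.627 CPM in blood and 358, 156 and 1826 CPM in glioma (log2 fold change 9.01 ± 1.07, adjusted p = 1.01e-06), with mouse 26 the highest. *Tgfb1* was not called (log2 fold change -0.49 ± 0.895, adjusted p = 0.826). With spike-in scaling 4 and 11 members of the lists were called higher.

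**Figure D3:**
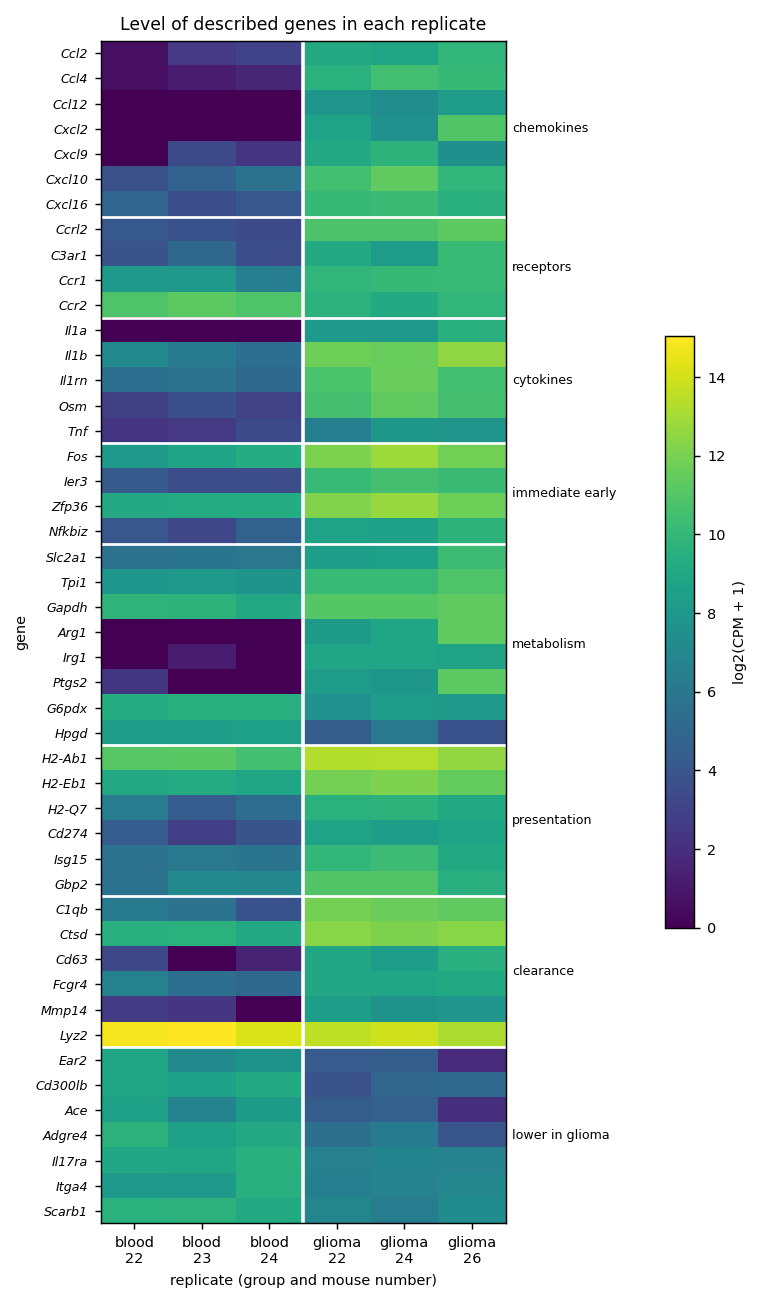
Level of genes described in the text in each of the 6 replicates, as log2(CPM + 1), with the groups separated by the vertical white line and the gene classes by horizontal lines. Chemokines and cytokines are dark in the blood replicates and bright in the glioma ones, *Cxcl2*, *Arg1* and *Ptgs2* are highest in the glioma replicate of mouse 26, and the genes at the bottom run the other way.

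Signalling genes that respond within minutes to stimuli were high in glioma monocytes. Of 25 tested immediate-early genes 18 were called higher and 0 lower (median 3.08). All 25 had a positive fold change, against 55.4% of all tested genes. *Fos* stood at 279, 429.9 and 629.8 CPM in blood and 4371, 7406 and 3687 CPM in glioma (log2 fold change 3.53 ± 0.43, adjusted p = 1.69e-06). *Ier3* stood at 17.98, 10.5 and 10.7 CPM and 1108, 1522 and 1211 CPM (log2 fold change 6.63 ± 0.42, adjusted p = 2.66e-11), and *Zfp36*, which destabilizes cytokine mRNAs, at 540.4, 600.4 and 639 CPM and 4619, 6759 and 3357 CPM (log2 fold change 3.05 ± 0.33, adjusted p = 2.59e-07). *Egr2* also rose (log2 fold change 5.399 ± 0.79, adjusted p = 2.14e-05), as did *Fosb* (pooled ratio 168, 95% counting interval 56.9 to 817), *Nr4a2* (no blood read, 8.53, 8.57 and 55.5 CPM in glioma) and *Nr4a3* (no blood read, 8.03, 8.03 and 20.002 CPM in glioma), whereas *Nr4a1*, *Klf2*, *Klf4* and *Ier2* were not called. Of the 13 tested heat-shock chaperones 3 rose, *Hspa1a* (3.004), *Hsp90aa1* (1.77) and *Hsp90ab1* (0.89); *Hspa1a* has a near-identical copy, *Hspa1b*, which was not called. These lists are known to respond to enzymatic dissociation, which the brain cells alone underwent, and its part in them was not tested. With spike-in scaling 5 immediate-early genes and 0 chaperones were called higher.

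The NF-kB list held risers among the inhibitors and none among the subunits. Of 16 genes 8 were called higher and 1 lower (median 1.12). *Nfkbia*, which holds NF-kB in the cytoplasm, went from 418, 387 and 277 CPM to 1339, 1836 and 2837 CPM (log2 fold change 2.47 ± 0.47, adjusted p = 0.000498). *Nfkbiz* went from 15.7, 8.201 and 24.2 CPM to 417, 393 and 857 CPM (log2 fold change 5.07 ± 0.74, adjusted p = 2.07e-05), and *Tnfaip3* (A20), a deubiquitinating inhibitor, from 14.04, 32.8 and 49.5 CPM to 498, 485 and 1065 CPM (log2 fold change 4.39 ± 0.76, adjusted p = 0.000183). The nuclear inhibitor *Nfkbid* (log2 fold change 3.58) and the TNF receptor adaptor *Traf1* (log2 fold change 2.82) rose too. The subunit *Nfkb1* fell from 291, 170.5 and 213 CPM to 61.7, 132 and 33.6 CPM (log2 fold change -1.57 ± 0.44, adjusted p = 0.0163), and *Nfkb2*, *Rel*, *Rela* and *Relb* were not called. *Nfkb1* was not called without the blood replicate of mouse 22 or the glioma replicates of mice 22 or 26. The count of 8 became 3 without the blood replicate of mouse 23, 4 without that of mouse 24, 4 without the glioma replicate of mouse 24, and 1 with spike-in scaling.

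Of 28 monocyte and macrophage transcription factors 7 rose and 2 fell (median 0.42). *Bhlhe40*, a helix-loop-helix repressor, rose from 102, 35.7 and 54.6 CPM to 558, 1259.8 and 1164 CPM (log2 fold change 3.96 ± 0.45, adjusted p = 4.88e-07). The macrophage factor *Maf* (2.25) and the regulators *Runx3* (1.92), *Id2* (1.503) and *Tfec* (3.23) rose also. *Bhlhe41* was called higher at a low level, with 4.01, 0 and 3.87 CPM in glioma and 0 in blood. *Irf4* fell (log2 fold change -3.02 ± 0.97, adjusted p = 0.0373) and so did the retinoic acid receptor *Rara* (log2 fold change -1.64 ± 0.45, adjusted p = 0.0137). *Spi1* (PU.1), *Irf8* and *Cebpb*, which set up the monocyte lineage, were not called. The 2 lower calls became 0 without the glioma replicates of mice 22 or 26 and 1 without that of mouse 24 or the blood replicates of mice 23 or 24, and with spike-in scaling 1 factor was called higher and 0 lower.

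Stress pathways moved in part. Of 22 tested genes of the unfolded protein and integrated stress responses 10 were called higher and 0 lower (median 0.66). They included *Atf4*, the factor made when eIF2 is phosphorylated, its known targets *Ddit3*, *Trib3*, *Asns*, *Chac1* and *Sesn2*, and the chaperones *Hspa5*, *Pdia4* and *Calr*. *Asns*, asparagine synthetase, went from 2.25, 1.76 and 0.209 CPM to 54.7, 49.8 and 62.6 CPM (log2 fold change 5.53 ± 0.74, adjusted p = 6.75e-06). *Ddit3* (CHOP) went from 8.99, 7.61 and 11.9 CPM to 51.2, 60.5 and 56.8 CPM (log2 fold change 2.54 ± 0.37, adjusted p = 2.45e-05), and *Ppp1r15a* (GADD34), which reverses the phosphorylation, from 27.5, 15.2 and 40.1 CPM to 298, 306 and 593 CPM (log2 fold change 3.83 ± 0.87, adjusted p = 0.00294). Of the IRE1 and ATF6 branches *Xbp1*, *Ern1*, *Atf6*, *Dnajb9* and *Edem1* were not called, while *Hspa5* (BiP) rose (log2 fold change 1.03 ± 0.29, adjusted p = 0.0156), a call lost without the blood replicates of mice 23 or 24 or the glioma replicates of mice 22 or 26. The count of 10 became 5 without the blood replicate of mouse 23, 6 without that of mouse 24, 6 without the glioma replicate of mouse 22 or of mouse 26, and 2 with spike-in scaling.

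Glycolysis, which turns glucose into lactate and is known to rise in activated or oxygen-poor myeloid cells, rose across most of its steps. Of 18 genes 12 were called higher and 0 lower, and the median was 1.57. All 18 had a positive fold change, against 55.4% of all tested genes. The glucose transporter *Slc2a1* stood at 47.2, 53.9 and 61.04 CPM in blood and 325, 358 and 1249.8 CPM in glioma (log2 fold change 3.57 ± 0.89, adjusted p = 0.0065). *Tpi1* stood at 235, 272 and 217 CPM and 1134, 1159 and 1874 CPM (log2 fold change 2.52 ± 0.42, adjusted p = 0.000105), *Gapdh* at 869, 831 and 548 CPM and 2152, 2143 and 2594 CPM (log2 fold change 1.62 ± 0.24, adjusted p = 2.34e-05), and *Ldha*, lactate dehydrogenase A, at 932, 954 and 511 CPM and 1855, 2052 and 2996 CPM (log2 fold change 1.53 ± 0.26, adjusted p = 0.00013). No replicate of the groups overlapped in these genes, and mouse 26 had the highest glioma level of each. The regulator of phosphofructokinase *Pfkfb3* (log2 fold change 2.36) and the committing enzymes *Pfkl* (2.04), *Pfkp* (1.38) and *Hk2* (1.46) rose too, and *Eno1*, *Gpi1*, *Hk1*, *Pgam1*, *Slc2a3* and the lactate exporter *Slc16a3* were not called. *Slc2a1* was not called without the glioma replicate of mouse 26. The count of 12 became 7 without the blood replicate of mouse 22, 7 without the glioma replicate of mouse 26, and 0 with spike-in scaling.

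Of the antioxidant list's 20 genes 5 fell and 5 rose. *G6pdx*, the first enzyme of the pentose phosphate pathway, fell from 630.3, 736 and 711 CPM to 192, 321 and 277 CPM (log2 fold change -1.395 ± 0.32, adjusted p = 0.00347). *Taldo1* fell from 1307, 1242 and 883 CPM to 621, 737 and 584 CPM (log2 fold change -0.82 ± 0.25, adjusted p = 0.0242) and *Tkt* from 622, 744 and 605 CPM to 344, 482 and 381 CPM (log2 fold change -0.71 ± 0.22, adjusted p = 0.0271). *Taldo1* and *Tkt* are enzymes of the same pathway, and the other genes that fell were glutathione reductase *Gsr* (-1.68) and catalase *Cat* (-0.96). The risers were the metallothioneins *Mt1* and *Mt2*, thioredoxin *Txn1* (1.35), superoxide dismutase *Sod2* (1.799) and the cystine importer *Slc7a11*. *Slc7a11* had 2 reads in all of blood and 101, 104 and 113 CPM in glioma, a pooled ratio of 436 with a 95% counting interval of 120.04 to 3606. *Taldo1* was not called without the blood replicates of mice 22 or 23 or the glioma replicates of mice 22 or 26, nor *Tkt* without blood of mouse 23 or glioma of mice 22 or 26. The regulator *Nfe2l2* (NRF2) and its targets *Nqo1*, *Gclc* and *Hmox1* were not called. The 5 lower calls became 1 to 3 on leaving out any of the 6 replicates (2, 1 and 3 for blood and 1, 3 and 1 for glioma in the order above), and 0 with spike-in scaling.

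Hypoxia genes rose in part, with 7 of 19 tested members called higher and 0 lower (median 1.98). *Hif1a* itself went from 261, 228 and 179.6 CPM to 922, 746 and 967 CPM (log2 fold change 1.98 ± 0.43, adjusted p = 0.00215). *Hilpda*, a lipid droplet protein induced by hypoxia, went from 10.1, 5.27 and 7.11 CPM to 90.8, 86.2 and 472 CPM (log2 fold change 4.84 ± 1.05, adjusted p = 0.002), and *Mif*, a cytokine and known hypoxia target, from 41.6, 29.3 and 28.6 CPM to 381, 412 and 434 CPM (log2 fold change 3.63 ± 0.35, adjusted p = 4.17e-08). *Ankrd37* (log2 fold change 3.05), a further target of the pathway, also rose. *Adm*, *Egln3*, *Car9*, *Pdk1*, *Ndrg1* and *Ddit4*, other targets of the pathway, were not called. With spike-in scaling 2 were called higher.

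Hypoxia-inducible factors bind a core of ACGTG, and promoters of both lists held it often. It was found on either strand in 12 of 17 glycolysis windows (70.6%) and 13 of 17 hypoxia windows (76.5%), against 29.8% of the tested genes with a window and 19.6% of all windows. The stretches below, with each match in capitals (CACGT on the opposite strand), are from members that rose. The 5 letters are also the core of E boxes and of other sites, so a match does not name a factor.
Slc2a1 (chr4:119108684-119108738, plus strand): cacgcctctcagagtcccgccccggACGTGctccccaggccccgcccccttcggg
Pgk1 (chrX:106186925-106186979, plus strand): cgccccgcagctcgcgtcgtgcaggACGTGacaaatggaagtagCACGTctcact
Ldha (chr7:46845634-46845688, plus strand): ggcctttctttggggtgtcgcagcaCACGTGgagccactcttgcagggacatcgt
Hilpda (chr6:29272558-29272612, plus strand): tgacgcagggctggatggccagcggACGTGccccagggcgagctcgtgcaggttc

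Respiration and protein synthesis stayed near the middle of all genes. Of 76 tested nuclear genes of oxidative phosphorylation 2 were called higher and 0 lower (*Cox7a2* and *Ndufv3*), with a median log2 fold change of 0.10; these calls became 0 without the blood or the glioma replicate of mouse 24 and 1 without blood of mouse 23 or glioma of mouse 22. None of the 7 tested mitochondrially encoded genes was called (median 0.27), nor was any of 83 cytosolic ribosomal protein genes (median 0.13, range -0.34 to 0.59) or 20 cholesterol synthesis genes (median -0.07). A gene that is not called has not been shown to be equal; for ribosomal proteins the range above bounds the fitted values.

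**Figure D4:**
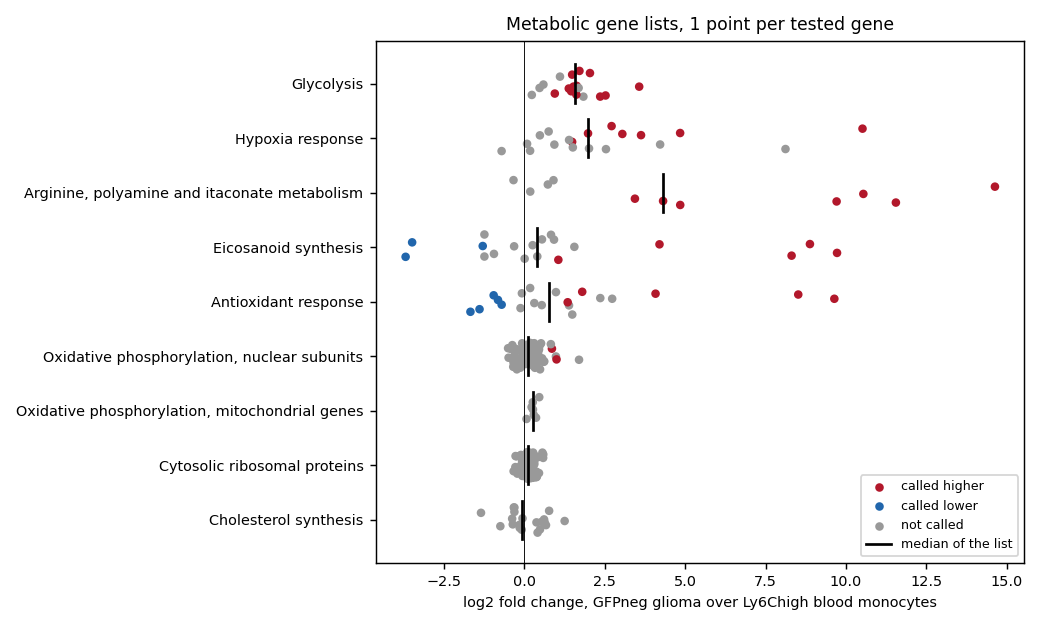
Log2 fold change of each tested member of 9 metabolic and housekeeping lists, 1 point per gene, red for called higher, blue for called lower, grey for not called, with the list median as a black bar. All 18 glycolysis genes lie above 0, the arginine and itaconate genes reach the largest values, and the 83 ribosomal genes lie between -0.34 and 0.59.

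Arginine and itaconate metabolism, known for shaping T cell and microbial responses, rose with 7 of 11 tested genes called higher and 0 lower (median 4.31). *Arg1* had no read in any blood replicate and 290.5, 473 and 2648 CPM in glioma, at least 838-fold higher (adjusted p = 4.63e-06), with mouse 26 the highest. *Nos2*, which competes for the same substrate, also went from 0 to 79.3, 67.5 and 257 CPM, at least 99.2-fold higher (adjusted p = 0.00101). The itaconate enzyme *Irg1* (*Acod1*) had 2 reads in all of blood and 476, 474 and 402 CPM in glioma, a pooled ratio of 1878 with a 95% counting interval of 519 to 15514. The arginine importer *Slc7a2* had none in blood and 13.04, 33.2 and 66.5 CPM in glioma. *Ass1*, which remakes arginine, went from 8.99, 6.44 and 6.27 CPM to 199.7, 199 and 31.6 CPM (log2 fold change 4.31 ± 0.91, adjusted p = 0.00148) and was lowest in mouse 26. *Odc1* rose, and the polyamine enzymes *Srm*, *Sms* and *Sat1* were not called. With spike-in scaling 5 were called higher.

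Lipid mediators changed in both directions. Of 19 eicosanoid genes 5 rose and 3 fell (median 0.40). *Ptgs2* (COX-2) went from 4.49, 0 and 0 CPM to 317, 252 and 2429.9 CPM (log2 fold change 9.72 ± 2.02, adjusted p = 0.00153), and *Ptgs1* (COX-1) from 11.8, 1.76 and 11.9 CPM to 133, 206 and 149 CPM (log2 fold change 4.202 ± 0.504, adjusted p = 1.24e-06). The leukotriene C4 and prostaglandin D synthases rose as well, as *Ltc4s* (no blood read, 12.04, 31.1 and 20.002 CPM in glioma) and *Hpgds* (pooled ratio 434, 95% counting interval 77.3 to 17206). *Hpgd*, which degrades prostaglandins, fell from 348, 349.7 and 388 CPM to 20.6, 62.6 and 12.9 CPM (log2 fold change -3.49 ± 0.75, adjusted p = 0.00173). *Ptgir*, the prostacyclin receptor, fell from 102, 79.7 and 169 CPM to 6.52, 13.4 and 7.097 CPM (log2 fold change -3.69 ± 1.24, adjusted p = 0.0476), and *Alox5ap*, which hands arachidonic acid to 5-lipoxygenase, from 793, 917 and 676 CPM to 313, 352 and 307 CPM (log2 fold change -1.296 ± 0.23, adjusted p = 0.000271). Both cyclooxygenases were thus higher, and the degrading enzyme lower, in the same replicates, with 3 prostaglandin E synthases not called. *Ptgir* lost its call on leaving out any of the 6 replicates, and with spike-in scaling 4 were called higher and 1 lower.

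Lipid-handling genes had 7 of 20 members called higher and 0 lower (median 0.45). *Gpnmb*, a glycoprotein of lipid-laden macrophages, had 3 reads in all of blood and 1259, 250.02 and 1591 CPM in glioma, a pooled ratio of 2773 with a 95% counting interval of 948 to 13452. *Ch25h* (no blood read, 13.04, 14.99 and 25.8 CPM in glioma), which makes 25-hydroxycholesterol, and *Cst7* (log2 fold change 5.67), a cysteine protease inhibitor, rose too. *Fabp5* rose from 64.6, 43.9 and 26.1 CPM to 415, 328 and 429.7 CPM (log2 fold change 3.13 ± 0.43, adjusted p = 9.31e-06) and *Cd9* from 102, 16.4 and 29.7 CPM to 559.8, 592 and 548 CPM (log2 fold change 3.53 ± 0.42, adjusted p = 9.91e-07), while *Apoe*, *Tyrobp*, *Lgals3* and *Plin2*, already abundant in blood, were not called. Of 17 iron and heme genes, ferritin heavy chain *Fth1* (log2 fold change 2.06 ± 0.501, adjusted p = 0.00541) and the transferrin receptor *Tfrc* rose, beside 11.1% of all tested genes. *Tfrc* had 2 reads in all of blood and 26.1, 11.2 and 23.2 CPM in glioma, a pooled ratio of 83.3 with a 95% counting interval of 22.5 to 697. These are results for single genes and not for the list.

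Antigen presentation rose on both the class II and class I sides. Of 13 class II genes 8 were called higher and 0 lower (median 1.99), and of 19 class I genes 13 and 0 (median 1.23). *H2-Ab1*, a class II chain, stood at 2272, 2284 and 1516 CPM in blood and 9969, 10646 and 6263 CPM in glioma (log2 fold change 2.15 ± 0.39, adjusted p = 0.000344). *H2-Eb1* stood at 545, 609.8 and 476 CPM and 3871, 4446 and 2808 CPM (log2 fold change 2.77 ± 0.39, adjusted p = 1.1e-05), and *H2-Oa*, a modulator of peptide loading, at 3.93, 3.51 and 3.76 CPM and 115, 116 and 48.4 CPM (log2 fold change 4.62 ± 0.76, adjusted p = 9.53e-05). The peptide editor chain *H2-DMb2* (log2 fold change 2.86) rose too. *Ciita*, the class II transactivator, was not called (log2 fold change 0.85 ± 0.42, adjusted p = 0.211). On the class I side *H2-K1* rose from 1782, 1601 and 1743 CPM to 5284, 5390.2 and 3827 CPM (log2 fold change 1.5004 ± 0.27, adjusted p = 0.000234), whereas *H2-D1* was not called (log2 fold change 0.52 ± 0.35, adjusted p = 0.405). *H2-Q7* rose from 77.5, 19.9 and 40.97 CPM to 782, 854 and 565 CPM (log2 fold change 3.99 ± 0.37, adjusted p = 2.55e-08), and *H2-Q6* likewise (4.61), with *H2-Q4* (log2 fold change 3.32) beside them; these neighbours are near-identical and the split of their reads is uncertain. The peptide transporter *Tap1* (1.57) and the immunoproteasome subunits *Psmb8* (0.98) and *Psmb9* (1.597) rose, and *Nlrc5*, the class I transactivator, was not called. Without the blood replicate of mouse 24 the class II count was 5, and with spike-in scaling 1 class II and 2 class I genes were called.

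Class II promoters carry a Y box, CCAAT on either strand, near an X box. CCAAT was present in 8 of 10 class II windows (80%), against 43.2% of the tested genes with a window and 37.4% of all windows. The stretches of members that rose are shown with the Y box in capitals, as ATTGG where it is on the opposite strand.
H2-Aa (chr17:34287842-34287896, minus strand): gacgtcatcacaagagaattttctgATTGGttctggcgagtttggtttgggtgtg
H2-Eb1 (chr17:34305783-34305837, plus strand): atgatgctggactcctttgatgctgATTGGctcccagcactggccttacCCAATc
H2-DMb1 (chr17:34153105-34153159, plus strand): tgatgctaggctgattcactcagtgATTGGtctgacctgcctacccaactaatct
H2-DMb2 (chr17:34145134-34145188, plus strand): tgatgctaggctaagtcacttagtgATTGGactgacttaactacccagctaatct

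Checkpoint and costimulatory molecules, which tune T cells, had 14 of 19 tested members called higher and 0 lower (median 2.22). *Cd274* (PD-L1) had 19.7, 5.86 and 14.2 CPM in blood and 424, 345 and 428 CPM in glioma (log2 fold change 4.8999 ± 0.64, adjusted p = 4.16e-06). The costimulatory *Cd86* had 53.9, 76.7 and 55.8 CPM and 403, 465 and 237 CPM (log2 fold change 2.57 ± 0.34, adjusted p = 5.94e-06), and *Cd83*, a maturation marker, 35.4, 11.1 and 23.4 CPM and 464, 783 and 701 CPM (log2 fold change 4.795 ± 0.61, adjusted p = 2.52e-06). *Entpd1* (CD39), which with *Nt5e* (CD73) makes adenosine, had 27.5, 69.7 and 107 CPM and 332, 307 and 266 CPM (log2 fold change 2.14 ± 0.41, adjusted p = 0.00051). The inhibitory ligands PD-L2, as *Pdcd1lg2* (log2 fold change 5.79), and B7-H3, as *Cd276* (log2 fold change 4.405), rose too. Inhibitory and stimulatory ligands therefore both stood among the risers, and *Sirpa*, *Pirb* and *Cd47* were not called. The count became 9 without the blood replicate of mouse 23 and 3 with spike-in scaling.

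Interferon-stimulated genes are switched on by type I or type II interferon and restrict viruses or aid presentation. Of 39 tested, 28 were called higher and 1 lower (median 1.81). *Isg15* went from 49.4, 65.02 and 53.5 CPM to 995, 1265 and 549.7 CPM (log2 fold change 4.06 ± 0.49, adjusted p = 1.36e-06). *Gbp2*, a guanylate-binding protein with a strong interferon-gamma response, went from 48.3, 145 and 122 CPM to 1982, 2004 and 726 CPM (log2 fold change 3.896 ± 0.44, adjusted p = 6.1e-07), and the regulator *Irf7* from 338, 402 and 463 CPM to 2507, 3342 and 1963 CPM (log2 fold change 2.698 ± 0.36, adjusted p = 6.99e-06). *Iigp1* went from 0, 0 and 3.97 CPM to 409, 235 and 161 CPM (log2 fold change 7.13 ± 0.91, adjusted p = 3.34e-06). *Gbp4* (log2 fold change 5.06) and *Ifi44* (log2 fold change 5.39) were further risers. *Ifitm6*, abundant in blood monocytes, fell from 365, 452 and 336 CPM to 73.7, 111 and 86.5 CPM (log2 fold change -2.08 ± 0.49, adjusted p = 0.00409), while its neighbour *Ifitm1* rose (log2 fold change 4.75 ± 0.63, adjusted p = 5.44e-06) and *Ifitm2* and *Ifitm3* were not called. The factors *Irf1* and *Stat2* were not called. Mouse 26 had the lowest glioma level of *Isg15*, *Gbp2*, *Irf7* and *Iigp1*. With spike-in scaling 7 were called higher and 0 lower.

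The interferon-stimulated response element, here TTTC and TTTC with any 2 bases between them on either strand, was in 18 of 29 windows of the list (62.1%), against 4.18% of the tested genes with a window and 3.44% of all windows. It was in 4 of 17 class I windows (23.5%). Stretches of members that rose are shown with the matches in capitals; in *Isg15* 3 matches overlap on the opposite strand.
Isg15 (chr4:156200862-156200921, minus strand): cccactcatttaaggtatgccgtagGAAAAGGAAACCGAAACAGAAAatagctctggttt
Ifit1 (chr19:34640760-34640819, plus strand): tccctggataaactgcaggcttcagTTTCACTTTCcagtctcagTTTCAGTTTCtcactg
Gbp2 (chr3:142620579-142620638, plus strand): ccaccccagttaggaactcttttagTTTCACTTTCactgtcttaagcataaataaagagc

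Genes of uptake and clearance rose in several lists. Of 19 tested complement genes 10 were called higher and 0 lower (median 2.61, or 2.06 with bounds). The chains of C1q, which tags debris and synapses for uptake, lie within 18.7 kb of chromosome 4 (136880129 to 136898803) and rose together. *C1qa* went from 16.9, 2.93 and 1.67 CPM to 1327, 1284 and 1187 CPM (log2 fold change 7.58 ± 0.67, adjusted p = 8.93e-09), *C1qb* from 76.4, 52.1 and 12.5 CPM to 3751, 3065 and 2681 CPM (log2 fold change 6.09 ± 0.57, adjusted p = 2.79e-08), and *C1qc* from 29.2, 18.2 and 3.76 CPM to 2445, 2082 and 1911 CPM (log2 fold change 7.03 ± 0.61, adjusted p = 7.08e-09). Microglia make C1q at high levels, and their markers stood at the sums given above; their part in the C1q values was not tested. *Cfb*, factor B of the alternative pathway, rose (log2 fold change 4.81 ± 0.58, adjusted p = 1.28e-06) and so did *Serping1* (no blood read, 31.1, 11.2 and 17.4 CPM in glioma), the C1 inhibitor, and *C3* was not called. Of 7 Fc receptors 5 rose (median 1.57): *Fcgr1* from 141, 188 and 118 CPM to 755, 806 and 827 CPM (log2 fold change 2.42 ± 0.24, adjusted p = 8.16e-08), *Fcgr4* (3.15), *Fcgr2b* (1.57), *Fcgr3* (0.7996) and *Fcrls*, which is itself a microglia marker. With spike-in scaling 7 complement genes and 2 Fc receptors were called.

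Receptors for dead cells and microbes split by member. Of 15 tested scavenger and efferocytosis receptors 5 rose and 1 fell (median 0.09). *Axl*, a TAM receptor that binds dying cells, rose from 71.9, 73.8 and 133 CPM to 887, 1144 and 899 CPM (log2 fold change 3.38 ± 0.39, adjusted p = 7.06e-07), and *Mertk* from 0, 0 and 2.299 CPM to 65.2, 43.9 and 117 CPM (log2 fold change 6.01 ± 0.69, adjusted p = 6.48e-07). *Stab1* (log2 fold change 6.32), a scavenger receptor of tissue macrophages, rose too. *Scarb1*, the HDL receptor, fell from 764, 800.1 and 570.2 CPM to 115, 79.2 and 149.7 CPM (log2 fold change -2.63 ± 0.46, adjusted p = 0.000211). In the Toll-like receptor system 3 of 15 rose (median 0.04): *Tlr2* (1.74), *Tlr3* (3.47) and the co-receptor *Cd14*, from 99.996, 112 and 48.5 CPM to 1206, 1000.1 and 2798 CPM (log2 fold change 4.27 ± 0.72, adjusted p = 0.000133). C-type lectins divided, with 4 of 14 tested members called higher and 5 lower. *Clec4a3*, *Clec4a1*, *Clec4a2*, *Clec4b1* and *Clec12a* fell, and *Clec4a3* went from 1013, 932 and 741 CPM to 333, 307 and 374 CPM (log2 fold change -1.41 ± 0.27, adjusted p = 0.000718). *Clec4n* (Dectin-2), an activating receptor for fungal sugars, rose from 29.2, 31.05 and 7.73 CPM to 288, 236 and 314 CPM (log2 fold change 3.66 ± 0.67, adjusted p = 0.00033), as did *Clec5a* (2.09), *Clec4d* (2.597) and the dendritic cell marker *Clec9a*. The *Clec4a* genes are close paralogs and their counts are uncertain where reads were split. The lectin counts became 2 higher on leaving out any one blood replicate or the glioma replicate of mouse 26, 2 lower without the glioma replicate of mouse 22, 3 lower without that of mouse 26 or the blood replicates of mice 23 or 24, and 1 higher and 0 lower with spike-in scaling.

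Lysosomal genes had 13 of 35 members called higher and 3 lower (median 0.54). *Ctsd*, an aspartic protease, rose from 702, 765 and 548 CPM to 5246, 4347 and 5195 CPM (log2 fold change 2.88 ± 0.24, adjusted p = 6.17e-09). *Cd63*, a late endosome tetraspanin, rose from 8.43, 0 and 1.67 CPM to 522, 349.6 and 675 CPM (log2 fold change 7.35 ± 0.53, adjusted p = 3.25e-10), and *Lgmn*, legumain, from 165, 142 and 129 CPM to 972, 797 and 1592 CPM (log2 fold change 2.95 ± 0.35, adjusted p = 1.26e-06). The hydrolases *Ctsl* (log2 fold change 3.12), *Ctsf* (log2 fold change 3.09) and *Gla* (log2 fold change 2.998) rose too. Lysozyme *Lyz2* fell from 28549, 33521 and 18773 CPM to 12605, 15879 and 9482 CPM (log2 fold change -1.09 ± 0.36, adjusted p = 0.046), together with its paralog *Lyz1* (-2.47) and the mannosidase *Man2b1* (-1.16). With spike-in scaling 2 were called higher and 0 lower, the 3 lower calls became 1 without the blood replicate of mouse 23 or the glioma replicates of mice 22 or 26, and *Lyz2* was also not called without the blood replicate of mouse 22.

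Matrix genes and proteases, which remodel tissue around the cells, had 16 of 30 members called higher and 1 lower (median 2.66, or 2.47 with bounds). *Mmp14*, a membrane-bound protease, rose from 5.06, 4.1003 and 0 CPM to 338, 209 and 227 CPM (log2 fold change 6.66 ± 1.11, adjusted p = 0.000112). *Tgfbi* rose from 1506, 1924 and 1375 CPM to 4363, 3668 and 5060.4 CPM (log2 fold change 1.45 ± 0.32, adjusted p = 0.00219), and *Adam8* from 28.1, 19.3 and 17.1 CPM to 101, 119 and 898 CPM (log2 fold change 4.12 ± 1.17, adjusted p = 0.0178). Members absent from blood included *Timp1* (no blood read, 62.2, 79.2 and 74.2 CPM in glioma), a protease inhibitor, *Adamts1* (no blood read, 9.03, 3.75 and 85.8 CPM in glioma) and *Sparc* (no blood read, 362, 536 and 449 CPM in glioma). *Thbs1*, thrombospondin 1, had 38.2, 35.1 and 27.4 CPM in blood and 586, 289.6 and 7208 CPM in glioma (log2 fold change 6.33 ± 2.13, adjusted p = 0.0486), with mouse 26 far above the other glioma replicates. *Mmp8*, a granule collagenase known from neutrophils, fell from 829, 660.1 and 244 CPM to 46.7, 84.1 and 192 CPM (log2 fold change -2.43 ± 0.82, adjusted p = 0.0477). The neutrophil markers *Ngp*, *Ltf* and *Camp* had no read in the blood replicates of mice 23 and 24, while *S100a8* had 76.7 and 62.7 CPM there. Which cells gave the *Mmp8* reads was not tested. *Fn1* and *Vcan*, matrix genes of classical monocytes, were not called. *Adam8* was not called on leaving out any one blood replicate or the glioma replicate of mouse 26, and *Mmp8* without the blood replicates of mice 22 or 23 or the glioma replicates of mice 22 or 24. The count of 16 became 10 without the blood replicate of mouse 22 or 23, 9 without that of mouse 24, 10 without the glioma replicate of mouse 26, and 9 with spike-in scaling.

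Adhesion genes gave no common direction, with 7 of 24 tested members called higher and 3 lower (median -0.17). The integrin chains *Itga4*, part of VLA-4, and *Itgal*, part of LFA-1, serve attachment to vessel walls and both fell. *Itga4* went from 283, 268 and 682 CPM to 90.3, 102 and 126 CPM (log2 fold change -1.96 ± 0.496, adjusted p = 0.00777), and *Itgal* from 762.3, 641 and 997 CPM to 232, 433 and 292 CPM (log2 fold change -1.33 ± 0.34, adjusted p = 0.00881). *Vcam1*, the ligand of VLA-4, had no read in blood and 60.2, 48.7 and 94.8 CPM in glioma, at least 50.1-fold higher (adjusted p = 1.1e-06), beside the endothelial markers given above. *Itgae* (log2 fold change 4.46), the CD103 chain of some dendritic and T cells, *Itga6* (log2 fold change 3.87), *Itgb5* (1.93), *Icam1* (0.97) and *Pecam1* (1.96) rose, and *Itgb2*, *Selplg* and *Cd44* were not called. Of 16 S100 proteins and annexins *Anxa3* (1.405) and *Anxa4* (1.17) rose, beside 11.1% of all tested genes called higher. *Anxa1*, an anti-inflammatory annexin, fell from 557, 667 and 468 CPM to 169, 244 and 258 CPM (log2 fold change -1.34 ± 0.36, adjusted p = 0.0114). *S100a8* and *S100a9* spread from 22.1 to 493 and 11.04 to 479.7 CPM over the 6 replicates and were not called. The 7 adhesion calls became 4 without the blood replicates of mice 23 or 24 and 1 with spike-in scaling, and the 3 lower calls became 1 without the blood replicate of mouse 24 or the glioma replicate of mouse 22. *Anxa1* was not called without the glioma replicate of mouse 22, and the calls of *Anxa3* and *Anxa4* became 0 without the blood replicates of mice 22 or 24 or the glioma replicates of mice 22 or 24, and 1 without blood of mouse 23 or glioma of mouse 26.

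Some members of 2 further gene families rose. Of 8 Gimap GTPases, known mainly from lymphocytes, 4 rose and 0 fell (median 2.45). All 8 had a positive fold change, against 55.4% of all tested genes. *Gimap4* went from 41.6, 5.86 and 10.5 CPM to 119, 192 and 89.7 CPM (log2 fold change 2.81 ± 0.55, adjusted p = 0.00072). The T and NK cell markers stood at the sums given above, and their part in the Gimap values was not tested. The other risers were *Gimap7* (log2 fold change 4.28), *Gimap3* (log2 fold change 2.27) and *Gimap6* (log2 fold change 2.25). Of 10 tested Ms4a genes 3 rose: *Ms4a7* from 20.2, 24.02 and 12.1 CPM to 289.95, 187 and 229 CPM (log2 fold change 3.67 ± 0.77, adjusted p = 0.0014), *Ms4a6d* (2.29) and *Ms4a4c* (1.21). None of the 7 Schlafen genes was called (median 0.71). The Gimap count became 2 without the blood replicates of mice 23 or 24 or the glioma replicate of mouse 24, and 0 with spike-in scaling.

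Most proliferation genes of the list, many of them near 0 in blood, were called higher in glioma monocytes. Of 33 cell cycle and replication genes 23 were called higher and 1 lower (median 3.12). The proliferation marker *Mki67* was not called (log2 fold change 2.20 ± 0.90, adjusted p = 0.112). Neither were *Aurka*, *Aurkb*, *Cdk2*, *Cdk6*, *Ccne2*, *Mcm4*, *Mcm5* and *Mcm7*. *Top2a*, a topoisomerase of dividing cells, had 3.37, 0 and 0 CPM in blood and 39.6, 19.3 and 117 CPM in glioma (log2 fold change 6.02 ± 1.21, adjusted p = 0.000932). *Birc5* had no read in blood and 19.6, 5.35 and 54.2 CPM in glioma, at least 19.4-fold higher (adjusted p = 3.09e-05). The mitotic genes *Plk1* (no blood read, 21.1, 18.7 and 65.8 CPM in glioma), *Bub1* (no blood read, 1.505, 3.75 and 45.2 CPM in glioma) and *Ccnb1* (pooled ratio 217, 95% counting interval 38.3 to 8633) rose too. *Mcm6*, a part of the replication helicase, went from 26.4, 21.1 and 23.8 CPM to 111, 107 and 116 CPM (log2 fold change 2.23 ± 0.75, adjusted p = 0.0473). The cyclin-dependent kinase inhibitor *Cdkn1a* (p21), which stops the cycle, rose in the same replicates, from 58.99, 72.6 and 37.8 CPM to 1074, 1687 and 1352 CPM (log2 fold change 4.61 ± 0.37, adjusted p = 2.15e-09). D-type cyclins changed places: *Ccnd3* fell from 876, 1138 and 715 CPM to 283, 313 and 223 CPM (log2 fold change -1.74 ± 0.51, adjusted p = 0.0227), and *Ccnd1* (6.87) and *Ccnd2* (3.54) rose. *Mcm6* lost its call on leaving out any of the 6 replicates and *Ccnd3* without blood of mouse 23 or glioma of mice 22 or 26, and with spike-in scaling 12 were called higher and 0 lower. CCAAT was in 20 of 27 promoter windows of the list (74.1%), against 43.2% of the tested genes with a window and 37.4% of all windows.

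Other motifs searched, each on both strands, gave these shares of list windows, each set against the share of tested genes with a window and then that of all windows. AP-1 (TGANTCA) was in 5 of 19 matrix windows (26.3%, against 6.36% and 7.81%), and the cell cycle element CHR (TTTGAA) in 9 of 27 cell cycle windows (33.3%, against 14.5% and 17.9%). The cAMP response element (TGAC next to GTCA) was in 3 of 21 immediate-early windows, those of *Dusp1*, *Btg2* and *Maff* (14.3%, against 3.655% and 1.79%). The amino acid response element (TTGC next to ATCA) was in 2 of 22 stress response windows (9.09%, against 0.782% and 0.895%), and the heat shock element (GAA, TTC and GAA with any 2 bases between each) in 3 of 10 chaperone windows (30%, against 0.609% and 0.603%). NF-kB motifs were in 0 of 13 interleukin-1 family windows.

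The glioma replicates differed from each other along these lists. Over all tested genes without ties (11534), the highest glioma level was in mouse 26 for 40.2%, in mouse 24 for 31.9% and in mouse 22 for 27.9%. In mouse 26 lay the highest level of 17 of 18 glycolysis genes, 25 of 30 matrix genes, 26 of 33 cell cycle genes and 13 of 19 hypoxia genes. In mouse 24 lay that of 11 of 13 class II genes, 13 of 19 class I genes, 27 of 39 interferon-stimulated genes, 70 of 83 ribosomal protein genes and 16 of 25 immediate-early genes, and no class II gene peaked in mouse 26. With 3 replicates these shares are a description of the libraries, and mouse 26 was also the one with *Xist*.

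**Figure D5:**
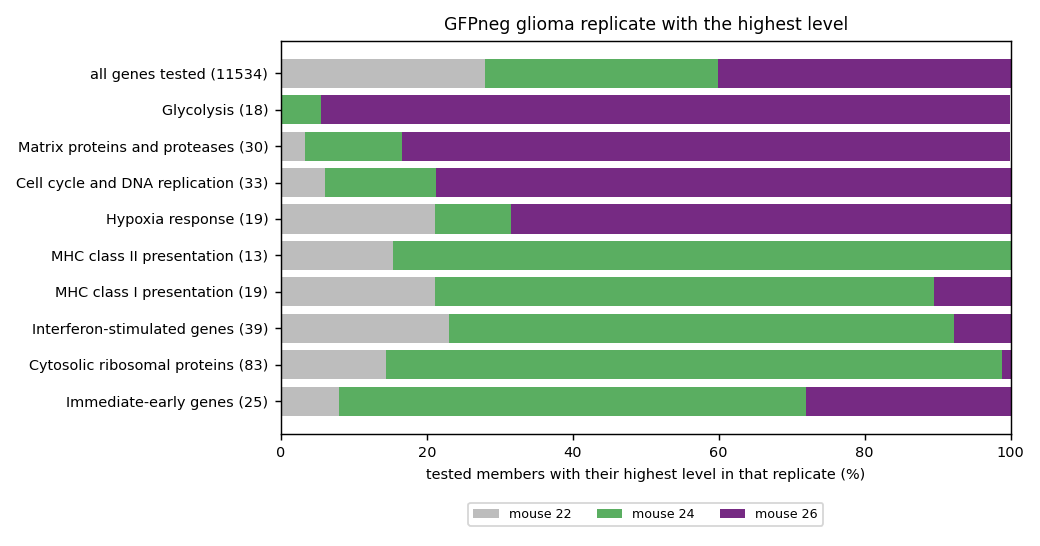
Percent of the tested members of each list whose highest glioma level was in mouse 22 (grey), 24 (green) or 26 (purple), with the number of genes in parentheses. Glycolysis, matrix and cell cycle genes peak in mouse 26, and presentation, interferon-stimulated and ribosomal genes in mouse 24, beside 40.2% and 31.9% of all genes.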

How the data were processed

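RNA of sorted cells was amplified with the SMARTer Ultra Low kit, made into Nextera XT libraries with ERCC spike-in RNAs and sequenced as paired 75-base reads. Per the methods and labels, the authors used STAR for alignment to mm10, Picard (1.8.4 in the submitters' processing notes) to drop duplicate reads and HTSeq to count reads per gene; whether counting used strand is not given in the sources used here. The deposited values are whole-number counts per gene symbol, with no normalization. Of the 30 libraries, 1 failed the rule of 6000 genes, and the counts of a repeat library of one mouse and population were added to the first, which left 28 replicates of 8 populations.

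Library sizes and tests used rows of genes only. In the 6 libraries, reads outside annotated genes made 8.52 to 12.5%, ambiguous reads 1.61 to 1.79% and spike-ins 0.290 to 1.26%. Genes were filtered with filterByExpr, scaled by TMM and tested with edgeR's quasi-likelihood test (edgeR 4.0.16, limma 3.58.1, R 4.3.3) over all 8 populations without a block, with Benjamini-Hochberg adjustment over 11566 genes and calls at an adjusted p under 0.05. The SE is the log2 fold change divided by the root of the F statistic. CPM use TMM-scaled library sizes. The test was run on simulated data with known changes before use, but the outcome is not given here and no result rests on it. Alternatives used DESeq2 1.42.0, other filters and scalings, and each replicate left out. Depth limits low genes: 3 reads, the floor used here, are 1.36 CPM in blood and 1.68 CPM in glioma on average, and intervals and floors cover counting error only.

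Mice 22 and 24 gave both groups, so these numbers pair samples by animal. Deviations of same-numbered samples from their group means correlated over genes at 0.0658 for mouse 22 and -0.0586 for mouse 24. Pairs of different mice gave -0.114 to 0.153, a range that holds both values. Replicates of a group are different mice, and their counts differed by more than sampling noise (a chi-square of 7.75 to 23.8 times its degrees of freedom between pairs).

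The members and lists were chosen with earlier results of these data known. Named genes are, by rule, the 10 largest changes in each direction among called genes whose mean reached 10 CPM in each group and whose replicates did not overlap, up to 4 called members of each list and direction with the largest change (10 CPM in the higher group, no overlap), and members that define a list by their known role; called members named outside these were chosen with their values seen, and a few members are not reported here. Promoter windows are from RefSeq on GRCm38.p6, and spans of neighbouring genes are from GENCODE vM21, in which 11111 of the tested symbols were found. Scripts ran in Python 3.11.15 with pandas 2.3.3 and scipy 1.17.1.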

Additional observations from a re-analysis of the deposited data

How the results depend on the processing

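The blood and glioma cells came through different handling, the groups hold 3 replicates each, and depth limits genes near the floor of 3 reads. With 1286 genes higher and 310 lower at first, the counts were 1303 and 286 with DESeq2 size factors, 1692 and 417 with DESeq2, 390 and 8 with spike-in scaling, 1018 and 204 with a filter of 1 count, 403 and 232 with at least 10 counts in every compared library, 1069 and 640 with the compared populations alone, and 1279 and 343 with first libraries only. The share of calls that were higher was 80.6% at first, 97.99% with spike-in scaling, 63.5% with the filter of 10 counts and 62.6% with the compared populations alone. With a replicate block by mouse, which pairs mice 22 and 24, they were 1427 and 434. Leaving out 1 replicate gave 824 to 1108 higher and 170 to 237 lower. Of 338 called genes in lists or named, 0 reversed under any alternative that gave them a value. With the filter of 10 counts only 209 of the 338 had a value. Calls were lost for 218 with spike-in scaling, 53 with the filter of 1 count, 5 with the block and 0 with DESeq2. Leaving out 1 replicate lost 51 to 82 of the 338. The cause of these shifts was not tested.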
